A study of Rattus norvegicus with 24 samples.

Results

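The 37 genes described here carry fatty acids from uptake through activation, the carnitine shuttle, mitochondrial and peroxisomal beta oxidation and ketone body formation, together with PPAR alpha, its coactivator and several of its target genes. They were chosen by name, as probes whose gene name on the array is on the list, and all 37 were present, out of 18641 genes tested. In the fed liver fatty acids are mostly stored or exported, and in fasting they are burned: long chains are bound to coenzyme A, passed across the inner mitochondrial membrane as carnitine esters, and shortened by a repeating cycle of dehydrogenation, hydration, a second dehydrogenation and thiolysis. Peroxisomes shorten the longest and branched chains. PPAR alpha is a nuclear receptor that binds fatty acids, pairs with the retinoid X receptor and raises the transcription of most of these genes, and excess acetyl-CoA leaves the liver as ketone bodies.

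RNA from flash-frozen liver of 24 male Wistar rats was hybridised to single-colour Agilent arrays, 1 array per rat, in a dietary model of non-alcoholic fatty liver disease. The rats ate standard pellets until 6 months of age and then, for 12 weeks, purified AIN76A-based diets in which copper and sucrose were varied and starch and dextrin evened out the carbohydrate. The 6 rats of the control diet received 125 mg/kg of copper, an adequate amount that the source names call high, and 10% sucrose. In the sucrose diet (6 rats) copper was as in the control and sucrose was 30%. In the low copper diet (6 rats) copper was under 0.3 mg/kg and sucrose was as in the control. In the combined diet (6 rats) both were changed, to under 0.3 mg/kg of copper and 30% sucrose. The rats were separate animals, and the labels name no genetic change or drug.

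Levels are log2 signals from which the 75th percentile of their array was taken, and a level of one probe cannot be set against that of another. Differences are log2 values from limma, each with its standard error (SE), and a gene passed the test where its p, adjusted by Benjamini-Hochberg over all 18641 genes of the comparison, was under 0.05. The 75th percentile lay between 433 and 1284 signal units per array against a local background of 38 to 48, and the number of arrays limits the precision. Of the members, 36 were well above background in all 24 rats. Ppargc1a, the coactivator that joins PPAR alpha in fasting, was well above background in only 6 rats (1 on the combined diet, 2 on the sucrose diet, 2 on the low copper diet and 1 on the control diet), so no size is given for its differences. Its measured signal, mostly not well above background, ran from -7.26 over -5.97 to -5.35 on the control diet, -6.82 over -5.53 to -5.20 on the sucrose diet, -6.94 over -5.82 to -4.96 on the low copper diet and -6.65 over -5.80 to -4.74 on the combined diet. All 12 hepatocyte markers (among them albumin and transthyretin) were well above background on all arrays, and the median of their differences was -0.01 for sucrose at adequate copper and 0.05 for copper at 10% sucrose. It was -0.14 for sucrose at low copper, -0.07 for copper at 30% sucrose and -0.13 for the combined diet against control (11 of 12 below 0). With slide fitted as a block, as described below, these 5 medians were 0.06, 0.11, -0.44, -0.32 and -0.34. In whole liver, fewer cells of a type and less RNA per cell cannot be told apart.

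The diets were not spread evenly over the 3 slides of 8 arrays. The combined diet lay wholly on slide 1 and the control diet wholly on slide 3. The sucrose diet was split into 2 rats on slide 1 and 4 on slide 2, and the low copper diet into 4 on slide 2 and 2 on slide 3. The sucrose and control diets met on no slide, so fitting slide as a block compares them only through the other diets. A pair of rats stood apart in many of these genes, rat 5 on the sucrose diet and rat 2 on the low copper diet. For some of the results that rest on them, values without them are also given. The pair was picked from these same genes. All diets share an estimate of the spread, so leaving out a rat also changes p in comparisons without its diet.

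PPAR alpha and the retinoid X receptor bind direct repeats of the hexamer AGGTCA with 1 base between. RefSeq promoters of the build GRCr8, from 250 bases before to 50 bases after each start, were listed for 32 of the 37 members (Vnn1, Acadl, Acaa2, Decr1 and Ech1 were not matched). They were searched on both strands for this repeat, without regard to other motifs it may overlap, counting mismatches over its 12 fixed letters. With no mismatch the repeat stood in 0 members and in 0.0538% of all 33469 promoters. With up to 1 mismatch it stood in 2 members (6.25%) and 0.439% of promoters, with up to 2 in 7 members (21.9%) and 3.77%, and with up to 3 in 14 members (43.8%) and 24.9%. The 7 members with up to 2 mismatches are shown with 8 bases on each side, in the direction in which the repeat reads, because they hold the closest match to the receptor's site; capitals mark the 13 bases of the match.
Fabp1: tcaaatatAGGCCATAGGTCAgtgattgt
Acadvl: gggagaagAGGTCAGTGGTCAaggcttca
Slc27a2: gatggcatATCTCAAAGGTCAtttcttca
Slc25a20: cttaatgtAGGTGAAAGGTCGgtgtagcc
Crat: gacgttcaAGGACACCGGTCAgacttgga
Echs1: ggaagatcAGATCAGAGGTCTtttagcgg
Etfa: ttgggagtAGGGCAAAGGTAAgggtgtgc
They lie at chr4:104749255-104749283 (minus strand) for Fabp1, chr10:55236702-55236730 (minus) for Acadvl, chr3:134258017-134258045 (minus) for Slc27a2, chr8:118243580-118243608 (plus) for Slc25a20, chr3:34087302-34087330 (minus) for Crat, chr1:204333641-204333669 (plus) for Echs1 and chr8:64788099-64788127 (plus) for Etfa. The match in Slc25a20 begins 15 bases after the start and that in Acadvl 17 bases before it. Of the 7, only Slc25a20 passed the test in any comparison described next. A match is a description of letters and no evidence of binding.

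Sucrose at adequate copper gave the most members past the test. On the sucrose diet 5 of 37 members (13.5%) were lower than on the control diet: Slc25a20, which carries acylcarnitines into the mitochondrion, Hadhb and Hadh, which act in the last steps of the mitochondrial cycle, and Acat1 and Bdh1, which make and interconvert ketone bodies. The acyl-CoA synthetase Acsl3 was the 1 member (2.7%) that was higher. Over all genes 2.48% passed as lower and 18.4% as higher. With quantile normalization 2 members (5.41%) and 5.56% of all genes were lower, and with the authors' table these were 2 members (5.41%) and 4.92%, so the members' share was near that of all genes in both. The differences of 33 of the 37 members lay below 0, with a median of -0.24, where the median of all genes was 0.07. Every member of the carnitine shuttle, the mitochondrial steps and the peroxisomal group had a difference below 0, but most were small and did not pass.

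**Figure D1:**
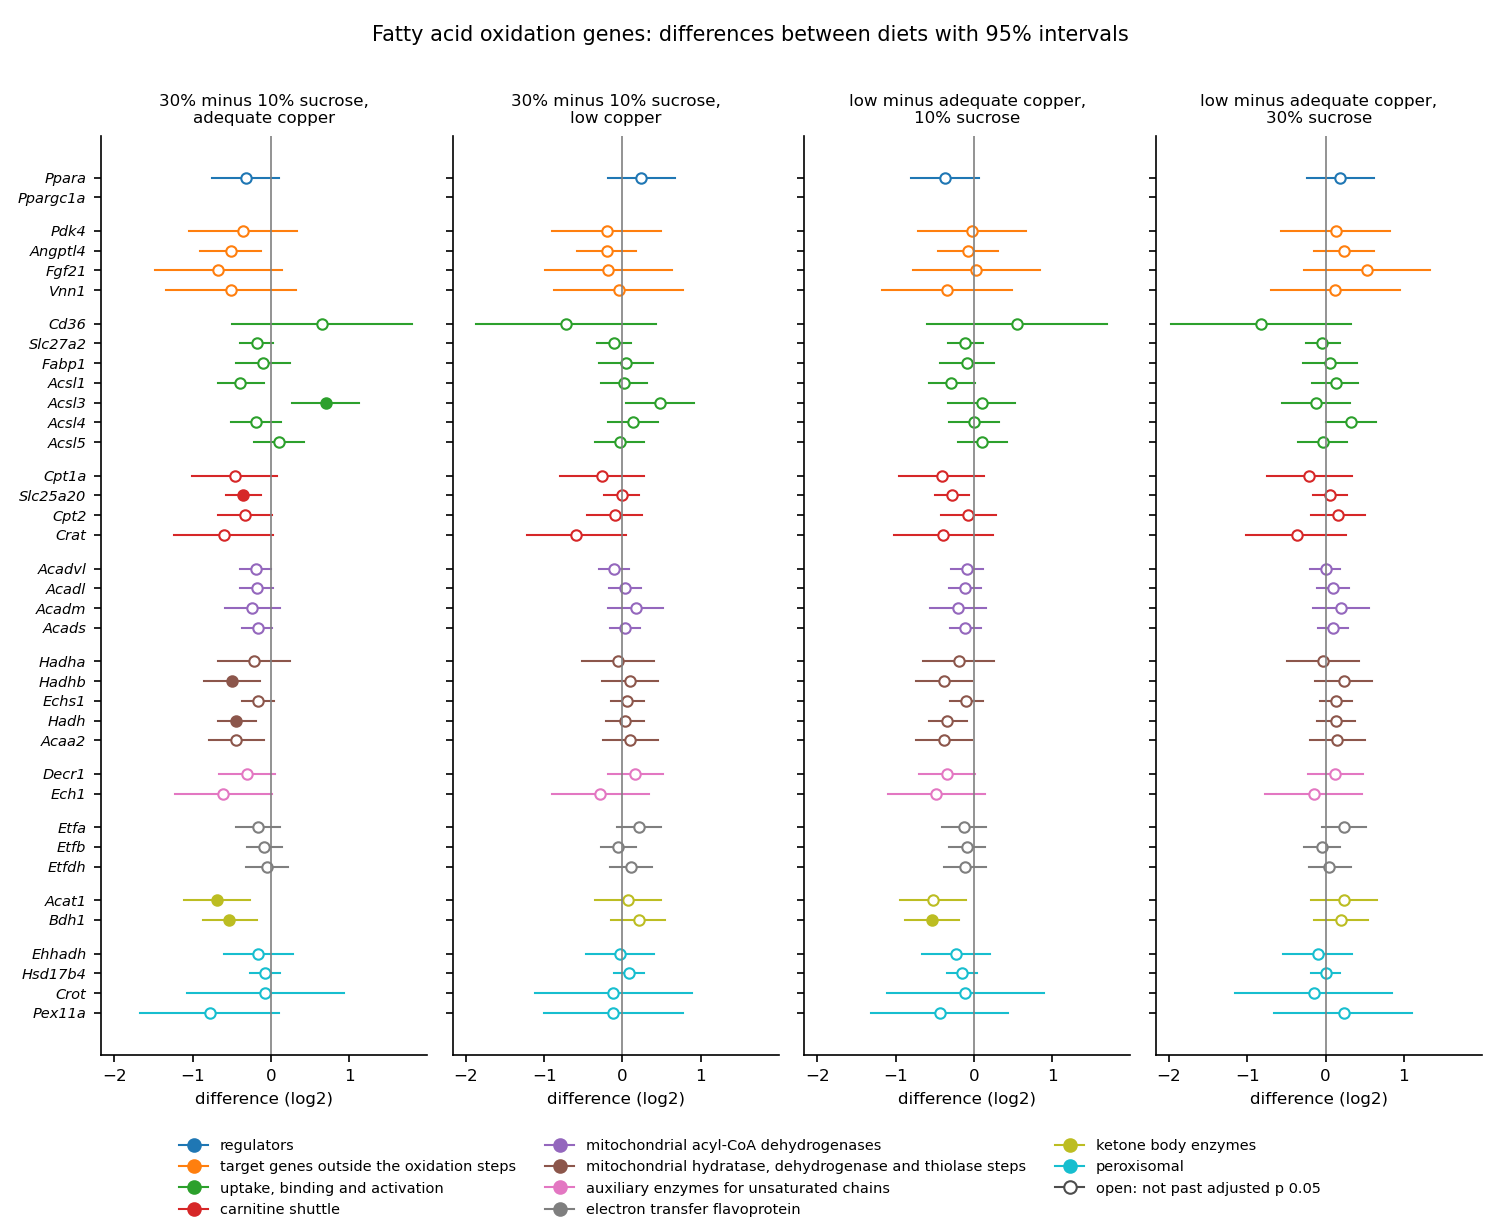
Differences in log2 signal (horizontal axis) of 36 members, ordered by step (vertical axis), in the 4 comparisons of diets that change copper or sucrose alone; bars are 95% confidence intervals, filled points passed the test and open points did not, and the row of Ppargc1a is left empty. With sucrose at adequate copper 5 members were lower and 1 higher past the threshold, with copper at 10% sucrose 1 was lower, and with sucrose at low copper and copper at 30% sucrose 0 passed.

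Hadh encodes the short-chain 3-hydroxyacyl-CoA dehydrogenase of the mitochondrial matrix, and its probe lies at chr2:228698567-228698626 of the rat build rn4. In the control rats its level ran from 6.70 over a median of 6.82 to 6.91, and on the sucrose diet from 6.16 over 6.40 to 6.49. It ran from 5.90 over 6.49 to 6.80 on the low copper diet, and from 6.33 over 6.53 to 6.74 on the combined diet. All 6 rats on the sucrose diet were below all 6 control rats, while the low copper and combined diets overlapped the control diet. The sucrose difference at adequate copper was -0.44 (limma, SE 0.12, adjusted p = 0.0121, 1.35-fold lower). Without the pair of rats it was -0.39 (adjusted p = 0.00966).

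Acat1, the mitochondrial acetoacetyl-CoA thiolase (probe at chr8:57056663-57056722, rn4), was the member with the largest fall past the test. Its level ran from 1.09 over 1.2 to 1.32 in the control rats and from -0.31 over 0.61 to 0.94 on the sucrose diet. On low copper it ran from -0.36 over 0.85 to 1.10 with 10% sucrose and from 0.52 over 0.75 to 0.94 with 30% sucrose. The control rats stood close together above all rats of the sucrose and combined diets, and both rats that stood apart were the lowest of their diets. The combined diet shares no slide with the control diet. With all rats its difference did not pass (-0.45, limma, SE 0.20, adjusted p = 0.256). Sucrose at adequate copper gave a difference of -0.69 (limma, SE 0.20, adjusted p = 0.0189, 1.61-fold lower). It was -0.52 without the pair of rats (adjusted p = 0.00635), and without rat 5 alone it missed the threshold (adjusted p = 0.0575).

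Bdh1 encodes the dehydrogenase that converts acetoacetate to beta-hydroxybutyrate (probe at chr11:71130669-71130728, rn4). Its level ran from 3.08 over 3.58 to 3.81 in the control rats, from 2.71 over 2.98 to 3.15 on the sucrose diet, from 2.39 over 2.90 to 3.46 on the low copper diet, and from 2.84 over 3.09 to 3.53 on the combined diet. All diets overlapped the control diet, with 5 control rats above every rat on the sucrose diet. Against the control diet the difference was -0.53 (limma, SE 0.17, adjusted p = 0.0267, 1.44-fold lower). Bdh1 kept the call in 27 of 36 alternative settings. It lost it without rat 4 (adjusted p = 0.0524) or rat 5 (0.0665) of the sucrose diet and without control rat 2 (0.0581), 3 (0.0601) or 4 (0.0660).

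Slc25a20, the carnitine-acylcarnitine carrier (probe at chr8:113736281-113736339, rn4), whose promoter match was shown above, ran from 2.79 over 2.96 to 2.99 in the control rats and from 2.38 over 2.60 to 2.71 on the sucrose diet. On low copper it ran from 2.20 over 2.70 to 2.97 with 10% sucrose and from 2.53 over 2.62 to 2.77 with 30% sucrose. Every rat of the sucrose or combined diet was below every control rat. The combined diet shares no slide with the control diet, and its difference did not pass (-0.29, limma, SE 0.11, adjusted p = 0.136). Between the sucrose and control diets the difference was -0.35 (limma, SE 0.11, adjusted p = 0.0202, 1.27-fold lower), and without rat 5 of the sucrose diet -0.31 (adjusted p = 0.0557).

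Hadhb and Hadha encode the beta and alpha subunits of the mitochondrial trifunctional protein, which handles the last 3 steps for long chains. RefSeq places their starts head to head on chromosome 6, 301 bases apart. The 200 bases that lie in the promoter windows of both genes (GRCr8, chr6:31907551-31907750, plus strand, the strand of Hadha) are shown because one stretch of DNA precedes both subunits.
Hadha_Hadhb: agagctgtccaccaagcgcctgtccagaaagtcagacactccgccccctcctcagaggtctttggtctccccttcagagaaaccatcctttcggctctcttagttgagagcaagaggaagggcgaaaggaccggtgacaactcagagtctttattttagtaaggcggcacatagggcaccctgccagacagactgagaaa
Neither promoter held the repeat with up to 2 mismatches. Hadhb (probe at chr6:26144500-26144559, rn4) ran from -0.01 over 0.23 to 0.53 in the control rats, from -0.86 over -0.14 to 0.01 on the sucrose diet, from -0.88 over -0.06 to 0.35 on the low copper diet, and from -0.21 over -0.08 to 0.28 on the combined diet. All diets overlapped the control diet, and the lowest values of the sucrose and low copper diets were again the pair of rats. The sucrose difference at adequate copper was -0.50 (limma, SE 0.17, adjusted p = 0.0420, 1.42-fold lower) and -0.38 without the pair (adjusted p = 0.0473). Hadhb kept the call in 25 of 36 settings and lost it without rat 1 (adjusted p = 0.0863) or rat 5 (0.124) of the sucrose diet and without control rat 1 (0.0689), 3 (0.0568), 5 (0.0916) or 6 (0.0852).

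Hadha ran from 2.0 over 2.50 to 2.96 in the control rats, from 2.01 over 2.21 to 2.76 on the sucrose diet, from 1.88 over 2.16 to 2.99 on the low copper diet, and from 1.69 over 2.04 to 3.11 on the combined diet. These ranges lay largely on top of each other. Sucrose at adequate copper gave a difference of -0.21 for the probe used (limma, SE 0.22, adjusted p = 0.543) and -0.37 for the other kept probe of the gene. The difference between Hadhb and Hadha was not tested.

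Acsl3, an acyl-CoA synthetase of the endoplasmic reticulum and lipid droplets (probe at chr9:78106570-78106629, rn4), was the member that rose. Its level ran from -3.32 over -2.46 to -1.87 in the control rats, from -2.25 over -1.84 to -1.38 on the sucrose diet, from -2.80 over -2.45 to -1.94 on the low copper diet, and from -2.31 over -2.00 to -1.46 on the combined diet. The medians of the sucrose and combined diets were above those of the low copper and control diets, with overlap. The sucrose difference was 0.70 at adequate copper (limma, SE 0.21, adjusted p = 0.0190, 1.62-fold higher) and 0.48 at low copper (SE 0.21, adjusted p = 0.496). Without control rat 6, the lowest of all rats, the difference at adequate copper was 0.54 (adjusted p = 0.0518). The other synthetases did not pass: the differences were -0.39 for Acsl1, the main synthetase of liver (limma, SE 0.14, adjusted p = 0.0549), -0.19 for Acsl4 and 0.11 for Acsl5. Acsl1 passed with normexp background correction, an intensity trend or array weights, but not with quantile normalization, the authors' table or the slide block.

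**Figure D2:**
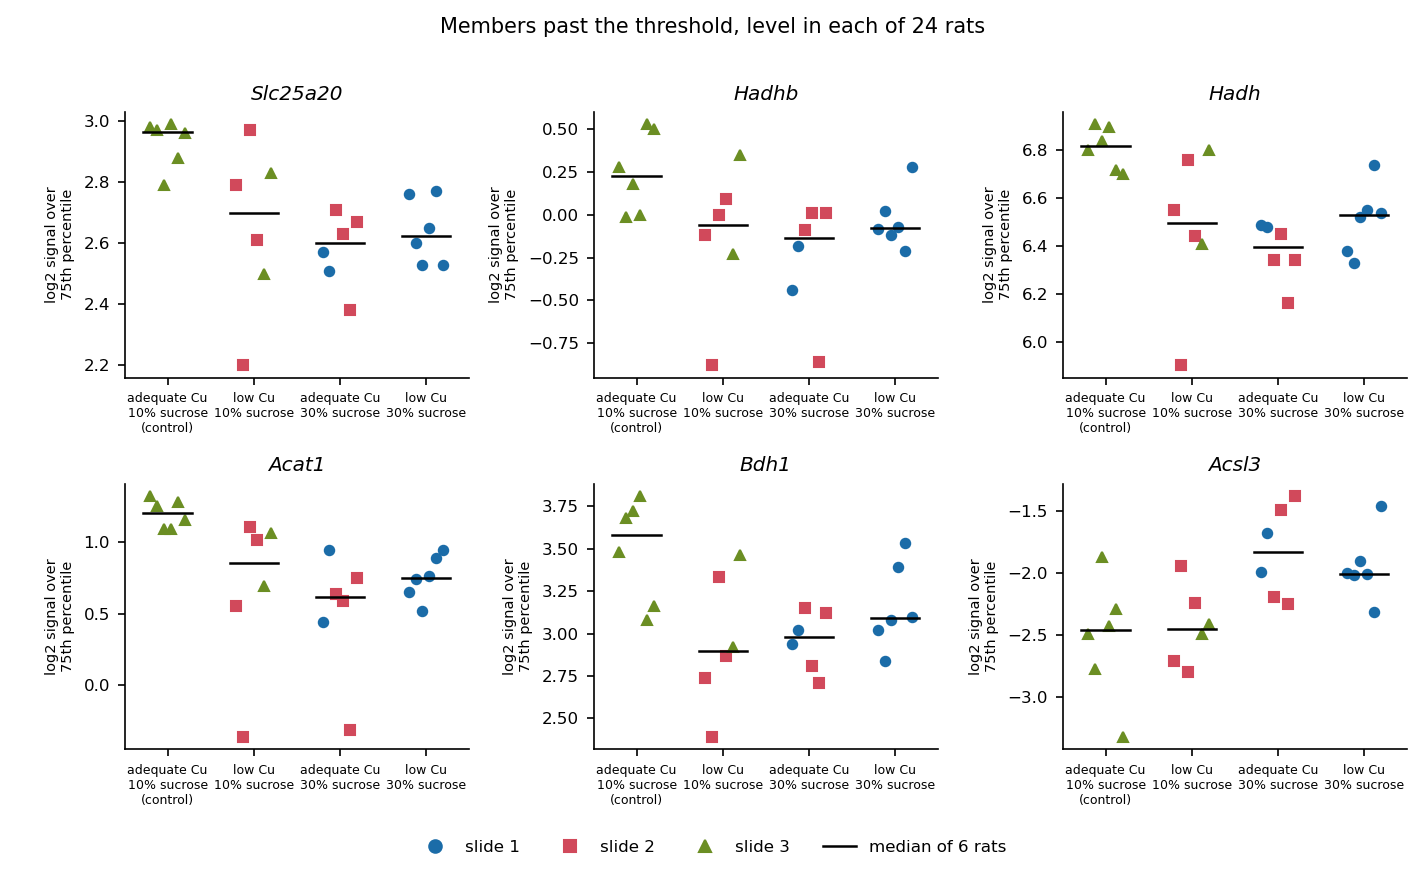
Level (vertical axis, log2 relative to the 75th percentile) of the 6 members past the threshold in each of 24 rats, by diet (horizontal axis); colour and shape give the slide and the line is the median of 6 rats. For Slc25a20, Hadh and Acat1 the 6 rats on the sucrose diet lie below the 6 control rats.

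In 3 members (8.11%), Slc25a20, Hadh and Acat1, the rats on the sucrose diet were all below all control rats, against 0.547% of all genes. In 0 members were they all above, against 11.9% of all genes. For the combined diet the share of all genes without overlap was not counted.

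With slide as a block in the fit, 0 members and 0 of all genes passed for sucrose at adequate copper (limma, 1 member and 758 genes at an unadjusted p under 0.05). The block differences were -0.48 for Acat1, -0.31 for Slc25a20, -0.30 for Hadh, -0.19 for Hadhb, -0.18 for Bdh1 and 0.68 for Acsl3, all with an adjusted p of 1. All 6 kept their sign, and Bdh1 and Hadhb moved the most in proportion. The median of the members was -0.19 with the block, with 31 of 37 below 0. Signs turned for 6 members, none of them past the test: Fgf21, from -0.67 to 0.38, Crot, from -0.07 to 0.84, Etfdh, from -0.05 to 0.37, Cd36, from 0.66 to -0.10, Fabp1, from -0.10 to 0.07, and Ppargc1a. Quantile normalization and the authors' table each ended the calls of Acsl3, Slc25a20, Hadhb and Bdh1, with adjusted p of 0.0528 to 0.116.

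**Figure D3:**
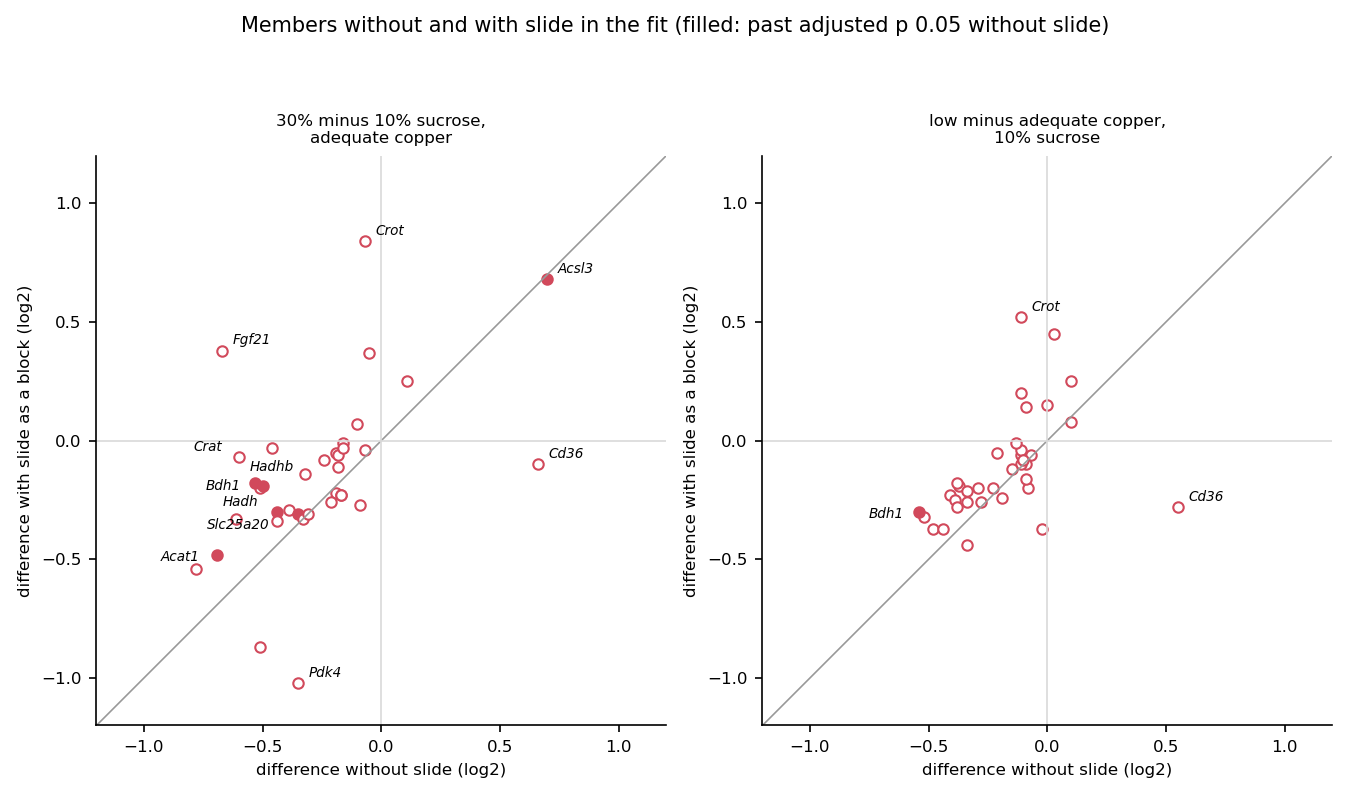
Differences of 36 members (log2) without slide in the fit (horizontal axis) and with slide as a block (vertical axis), for sucrose at adequate copper and for copper at 10% sucrose; filled points passed the test without slide and the diagonal marks equal values. Most points stay below 0 on both axes, Acsl3 lies near the diagonal at 0.70 and 0.68, and Crot and Cd36 lie far from it.

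Among the other members, the acyl-CoA dehydrogenases, which open each turn of the cycle for very long (Acadvl), long (Acadl), medium (Acadm) and short chains (Acads), had sucrose differences at adequate copper between -0.24 and -0.17, and 0 of 4 passed. Acadm ran from 5.44 over 5.71 to 5.85 in the control rats, from 4.83 over 5.56 to 5.68 on the sucrose diet, from 4.52 over 5.64 to 5.79 on the low copper diet, and from 5.57 over 5.62 to 5.72 on the combined diet. Apart from the pair of rats, which were lowest by far, the diets overlapped almost fully. Its difference was -0.24 (limma, SE 0.17, adjusted p = 0.357) and -0.12 without the pair. The thiolase Acaa2 had a difference of -0.44 (SE 0.17, adjusted p = 0.0715) and the hydratase Echs1 one of -0.17. For the auxiliary enzymes of unsaturated chains, Ech1 and Decr1, the differences were -0.61 and -0.31, and for the electron transfer flavoprotein and its dehydrogenase (Etfa, Etfb, Etfdh) -0.16, -0.09 and -0.05, with none past the test.

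Cpt1a, the gate of the carnitine shuttle that malonyl-CoA inhibits, ran from 2.83 over 3.15 to 3.56 in the control rats, from 2.30 over 2.55 to 3.41 on the sucrose diet, from 1.98 over 2.77 to 3.33 on the low copper diet, and from 1.63 over 2.63 to 3.37 on the combined diet. The control median was the highest of the 4, but each of the other diets held rats within the control range. Against the control diet the difference was -0.46 (limma, SE 0.26, adjusted p = 0.227). The other shuttle members, Cpt2 and the carnitine acetyltransferase Crat, had differences of -0.33 and -0.60 and did not pass (adjusted p = 0.177 and 0.174).

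The receptor gene itself, Ppara, ran from -0.83 over -0.25 to -0.04 in the control rats, from -1.04 over -0.67 to -0.31 on the sucrose diet, from -1.63 over -0.53 to -0.19 on the low copper diet, and from -0.65 over -0.51 to -0.06 on the combined diet. The ranges overlapped in all diets. Between the sucrose and control diets the difference was -0.32 (limma, SE 0.21, adjusted p = 0.301) and the copper difference at 10% sucrose -0.37 (SE 0.21, adjusted p = 0.262). Without the pair of rats these were -0.25 (adjusted p = 0.389) and -0.19 (adjusted p = 0.617).

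The fasting-responsive target genes outside the oxidation steps did not pass the test in the main fit of any comparison. Angptl4, a secreted inhibitor of lipoprotein lipase, ran from 5.52 over 5.96 to 6.17 in the control rats, from 4.86 over 5.34 to 6.07 on the sucrose diet, from 5.45 over 5.90 to 6.29 on the low copper diet, and from 5.27 over 5.73 to 5.97 on the combined diet. Of the rats on the sucrose diet, 4 were below all control rats. The difference was -0.51 (limma, SE 0.19, adjusted p = 0.0524), just over the threshold, and -0.4 without the pair of rats (adjusted p = 0.129). Angptl4 passed with the replicate block, an intensity trend or array weights and without some single rats, but not with quantile normalization or the authors' table. With the slide block, which compares these diets only through the other diets, the difference was -0.87 (SE 0.33) and did not pass.

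Fgf21, a hormone that the liver secretes in fasting and after sugar intake, ran from -0.76 over -0.15 to 0.23 in the control rats, from -1.75 over -1.16 to 0.39 on the sucrose diet, from -0.93 over -0.30 to 1.14 on the low copper diet, and from -1.27 over -0.31 to 0.78 on the combined diet. The sucrose diet had the lowest median and a wide spread. The sucrose difference at adequate copper was -0.67 (limma, SE 0.39, adjusted p = 0.242) and, as given above, turned its sign with the slide block.

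Pdk4, the kinase that shuts off pyruvate dehydrogenase when fat is burned, ran from -2.35 over -1.52 to -0.56 in the control rats, from -2.25 over -1.91 to -1.52 on the sucrose diet, from -2.39 over -1.45 to -0.97 on the low copper diet, and from -2.88 over -1.68 to -0.93 on the combined diet. All diets overlapped. Sucrose at adequate copper gave a difference of -0.35 (limma, SE 0.34, adjusted p = 0.505). With the slide block it was -1.02 with a wider SE of 0.63, and it did not pass. Vnn1, the pantetheinase, had a difference of -0.51 (adjusted p = 0.407).

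In the peroxisomal group, Ehhadh, the bifunctional enzyme of the straight-chain pathway, ran from 2.59 over 2.64 to 2.84 in the control rats, from 1.73 over 2.43 to 3.11 on the sucrose diet, from 1.59 over 2.48 to 3.1 on the low copper diet, and from 2.04 over 2.40 to 2.71 on the combined diet. The control rats were close together inside the range of the sucrose and low copper diets. Against the control diet the difference was -0.16 (limma, SE 0.21, adjusted p = 0.646) and 0.0 without the pair of rats. Those of Hsd17b4 (the second bifunctional enzyme), Crot (carnitine octanoyltransferase) and Pex11a (a peroxisome division factor) were -0.07, -0.07 and -0.78, and none passed.

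Cd36, the fatty acid translocase, which macrophages also express, ran from -1.14 over -0.99 to -0.55 in the control rats, from -1.42 over -0.63 to 2.42 on the sucrose diet, from -1.23 over -1.09 to 2.46 on the low copper diet, and from -1.68 over -1.07 to -0.56 on the combined diet. Rats 5 and 2 of the sucrose and low copper diets stood alone at the top, and the remaining rats overlapped in all diets. Between the sucrose and control diets the difference was 0.66 (limma, SE 0.56, adjusted p = 0.446) and 0.12 without the pair, and the copper difference at 10% sucrose was 0.55 and, without the pair, -0.02. Its second kept probe gave differences of 0.49 and 0.51 with all rats. Slc27a2, a very long-chain synthetase and carrier, and Fabp1, the liver fatty acid binding protein, had sucrose differences of -0.18 and -0.10 at adequate copper and did not pass.

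**Figure D4:**
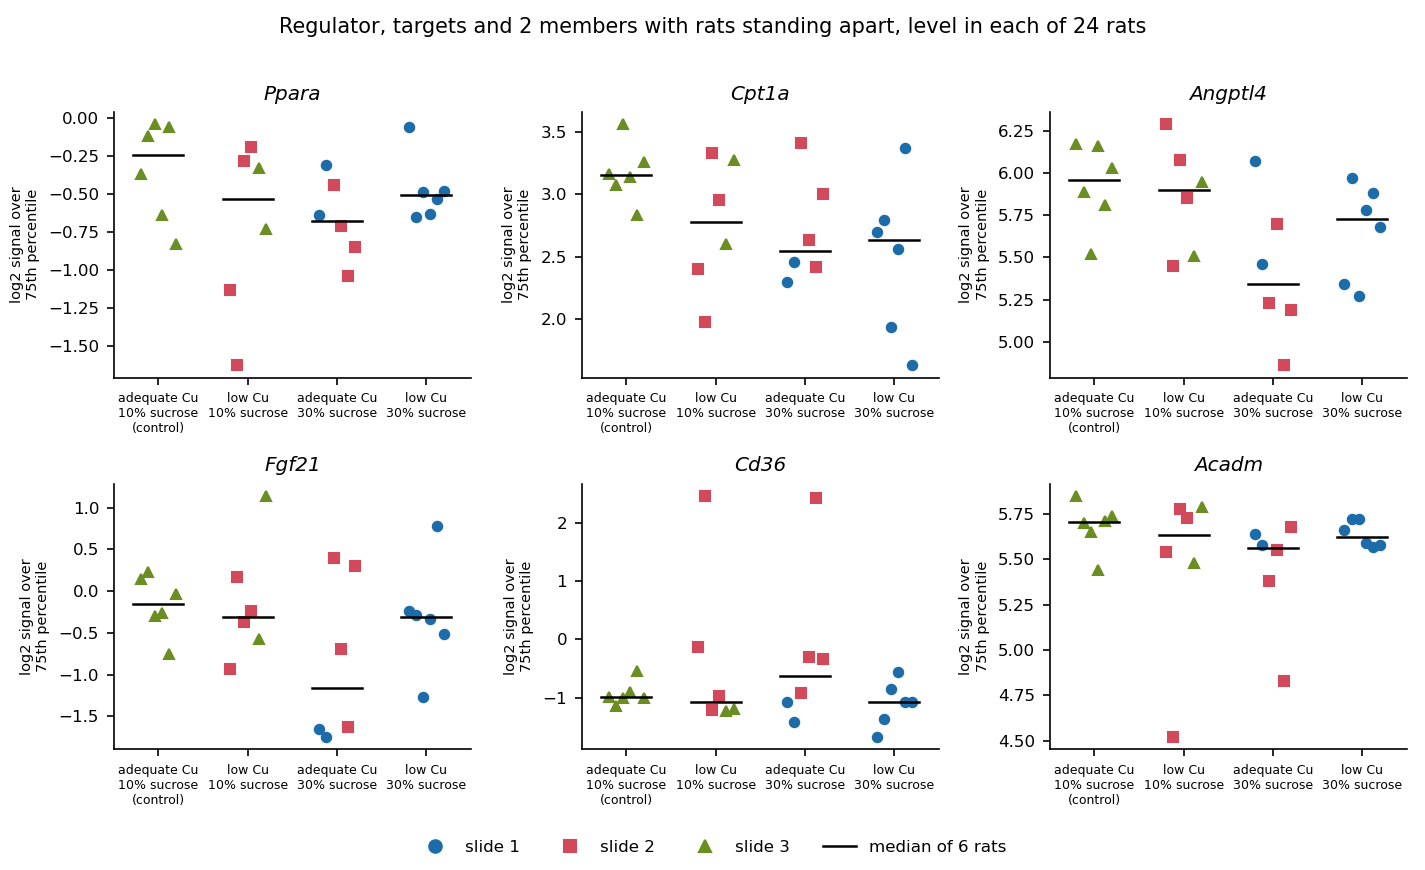
Level (vertical axis, log2 relative to the 75th percentile) of Ppara, Cpt1a, Angptl4, Fgf21, Cd36 and Acadm in each of 24 rats, by diet (horizontal axis), with slides by colour and shape and the median of 6 rats as a line. In Cd36 a rat on each of the sucrose and low copper diets stands at 2.42 and 2.46, and in Acadm the same rats are lowest, at 4.83 and 4.52.

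Copper at 10% sucrose changed 1 member past the test. Bdh1 was lower on the low copper diet than on the control diet, with a difference of -0.54 (limma, SE 0.17, adjusted p = 0.0248, 1.45-fold lower), where 0.595% of all genes passed as lower and 18% as higher. This comparison and that of sucrose at adequate copper share the 6 control rats. Hadh, with -0.34 (SE 0.12, adjusted p = 0.0522), Slc25a20, with -0.28 (SE 0.11, adjusted p = 0.0710), and Acat1, with -0.52 (SE 0.20, adjusted p = 0.0821), missed the threshold. Of the members, 31 of 37 lay below 0 with a median of -0.13, against 0.05 for all genes. That median was -0.06 without rat 2 of the low copper diet and -0.22 without rat 6. With the slide block Bdh1 stood at -0.30 (adjusted p = 0.927) and 0 members passed. Without the pair of rats it stood at -0.43 (adjusted p = 0.0786), and it also lost the call without low copper rat 1 (adjusted p = 0.0610), 2 (0.0788) or 4 (0.0504) and without control rat 2 (0.0561), 3 (0.0619) or 4 (0.0685).

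At the other level of each factor 0 members passed. For sucrose at low copper, limma called 0 members and 0 of all genes (0%), with 1 member and 1786 genes at an unadjusted p under 0.05, and the member was Acsl3. The median of the members was 0 and 19 of 37 lay below 0. For copper at 30% sucrose limma also called 0 members and 0 of all genes (0%), with 1 member, Acsl4, and 1839 genes at an unadjusted p under 0.05. There 24 of 37 members lay above 0, with a median of 0.10 (0.02 without rat 5 of the sucrose diet, 0.06 without rat 5 of the combined diet), and Acsl4 had a difference of 0.33 (SE 0.15, adjusted p = 0.497).

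The combined diet had 31 of 37 members below the control diet, with a median of -0.20, and limma called 0 of them, against 0.0376% of all genes as lower and 1.72% as higher. These diets share no slide, and with slide as a block 22 of 37 members lay below 0, with a median of -0.06 against -0.12 for all genes. At an unadjusted p under 0.05 there were 9 members and 3181 genes. Crat had the lowest difference, -0.98 (SE 0.31, adjusted p = 0.0835), with levels from 2.67 over 3.27 to 4.02 against 3.68 over 4.34 to 4.70 in the control rats. Cpt1a stood at -0.67 (SE 0.26, adjusted p = 0.173) and Ech1 at -0.76 (SE 0.30, adjusted p = 0.174). When slide entered the fit these 3 stood at 0.20, 0.09 and -0.25. Without the pair of rats Acat1 passed, at -0.45 (adjusted p = 0.0475).

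The copper by sucrose interaction, the copper difference at 30% sucrose minus that at 10%, passed for 1 member, Bdh1, at 0.74 (limma, SE 0.24, adjusted p = 0.0289), where 18.9% of all genes passed below 0 and 1.94% above. The copper difference of Bdh1 was -0.54 at 10% sucrose and 0.20 at 30% sucrose. Acat1, at 0.76 (SE 0.29, adjusted p = 0.0632), and Hadh, at 0.47 (SE 0.17, adjusted p = 0.0511), missed the threshold. The interaction of Bdh1 was 0.48 with the slide block (adjusted p = 0.543) and 0.57 without the pair of rats (adjusted p = 0.0933). It lost the call without low copper rat 4 (adjusted p = 0.0524) or 5 (0.0519) at 30% sucrose, adequate copper rat 5 at 30% sucrose (0.0538), low copper rat 1 (0.0509) or 2 (0.0537) at 10% sucrose, and control rat 3 (0.0505) or 4 (0.0531).

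Copper could be compared within 2 slides, 6 low against 2 adequate copper rats at 30% sucrose on slide 1 and 2 low against 6 adequate copper rats at 10% sucrose on slide 3. On slide 3, 30 of 37 members were lower on low copper, with a median of -0.18 (0.04 over all genes), and on slide 1, 14 of 37 were, with a median of 0.05 (-0.09 over all genes). Of the members, 9 were below 0 on both slides, 2 above 0 on both and 26 of opposite sign. For each of the 37 members an exact two-sided permutation test over rats within slides was run on the mean of both differences, with 0.00128 as the smallest p it allows. It fell under 0.05 without adjustment for 2 members (5.41%) and for 2.12% of all genes, and for 0 genes after Benjamini-Hochberg adjustment over all genes. The members were Fgf21, which was 1.39 higher on slide 1 and 0.45 higher on slide 3 (exact p = 0.0242), and Etfb, which stood at -0.21 and -0.16 (exact p = 0.0383). With quantile normalization the mean of both slides was 0.93 for Fgf21 (exact p = 0.0204), and for Etfb it moved from -0.18 to -0.07 (exact p = 0.244). Bdh1 stood at 0.18 on slide 1 and -0.30 on slide 3 (exact p = 0.722).

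Over single rats the mean of the members, each centred on its mean over 24 rats, ran from -0.01 to 0.27 on the control diet (0.15 ± 0.10, SD, n = 6). It ran from -0.46 to 0.09 on the sucrose diet (-0.10 ± 0.20), from -0.43 to 0.27 on the low copper diet (-0.02 ± 0.26) and from -0.16 to 0.15 on the combined diet (-0.04 ± 0.12). The pair of rats held the lowest means, -0.46 for rat 5 and -0.43 for rat 2. Rat 2 on the low copper diet was the lowest of all 24 rats in 20 of 37 members, and rat 5 on the sucrose diet in 6.

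Markers of some other cells moved with these values. The same pair of rats had the highest means of 6 neutrophil markers, 2.66 for rat 5 and 1.79 for rat 2, and of 9 Kupffer cell and macrophage markers, 1.09 and 1.76. They were also highest in T, B and NK cell (0.8 and 1.08), stellate cell (0.6 and 0.4), endothelial cell (0.61 and 0.49) and adipocyte markers (0.55 and 0.61). The pair was not highest together in red blood cell (1.85 and 0.37), bile duct cell (0.02 and 0.16) or hepatocyte markers (-0.02 and -0.08). The neutrophil mean was lowest on the control diet (-0.89 on average, against 0.85 on the sucrose diet, 0.33 on the low copper diet and -0.29 on the combined diet). The summed signal of the 6 kept neutrophil markers, in units of the 75th percentile, lay between 0.693 and 1.15 in the control rats, 1.60 and 20.8 on the sucrose diet, 1.22 and 4.99 on the low copper diet and 0.879 and 1.65 on the combined diet. Of 8 listed neutrophil markers, Elane and Ngp were not kept, being above background on too few arrays. Of the kept markers, 3 of 6 for neutrophils and 3 of 8 for T, B and NK cells were well above background on all arrays. For adipocytes these were 2 of 3 and for bile duct cells 1 of 5. Differences in these lists therefore rest partly on signal not well above background. As 6 arrays sufficed to keep a marker, some may have been kept through 1 diet alone. For sucrose at adequate copper 18.4% of all genes passed as higher. There 5 of the 6 kept neutrophil markers rose (median 1.72), and 4 of 8 T, B and NK cell markers (median 0.52). So did 2 of 6 red blood cell markers (median 1.30) and 1 of 9 Kupffer cell and macrophage markers (median 0.32). Of the stellate cell markers 2 of 8 rose (median 0.21), and of the endothelial cell markers 1 of 5 (median 0.08). Of 3 kept adipocyte markers 1 rose and 1 fell, and 0 of 5 bile duct cell markers passed. Hepatocyte markers gave 0 of 12 calls there (limma). With slide as a block the medians were 0.98 for neutrophil and 1.63 for red blood cell markers, and turned to -0.36 for Kupffer cell and macrophage markers (8 of 9 below 0) and -0.16 for T, B and NK cell markers (5 of 8 below 0). They also turned below 0 for stellate cell (-0.17), endothelial cell (-0.58) and adipocyte (-0.26) markers. What part these cells have in the members' differences was not tested. Without rat 5 of the sucrose diet, Acsl3 and Hadh alone passed among the members for sucrose at adequate copper, and without both rats of the pair the 6 members passed (adjusted p of 0.00635 to 0.0473). Rat 2 is on neither diet of that comparison, and leaving it out acts there only through the spread that all diets share.

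**Figure D5:**
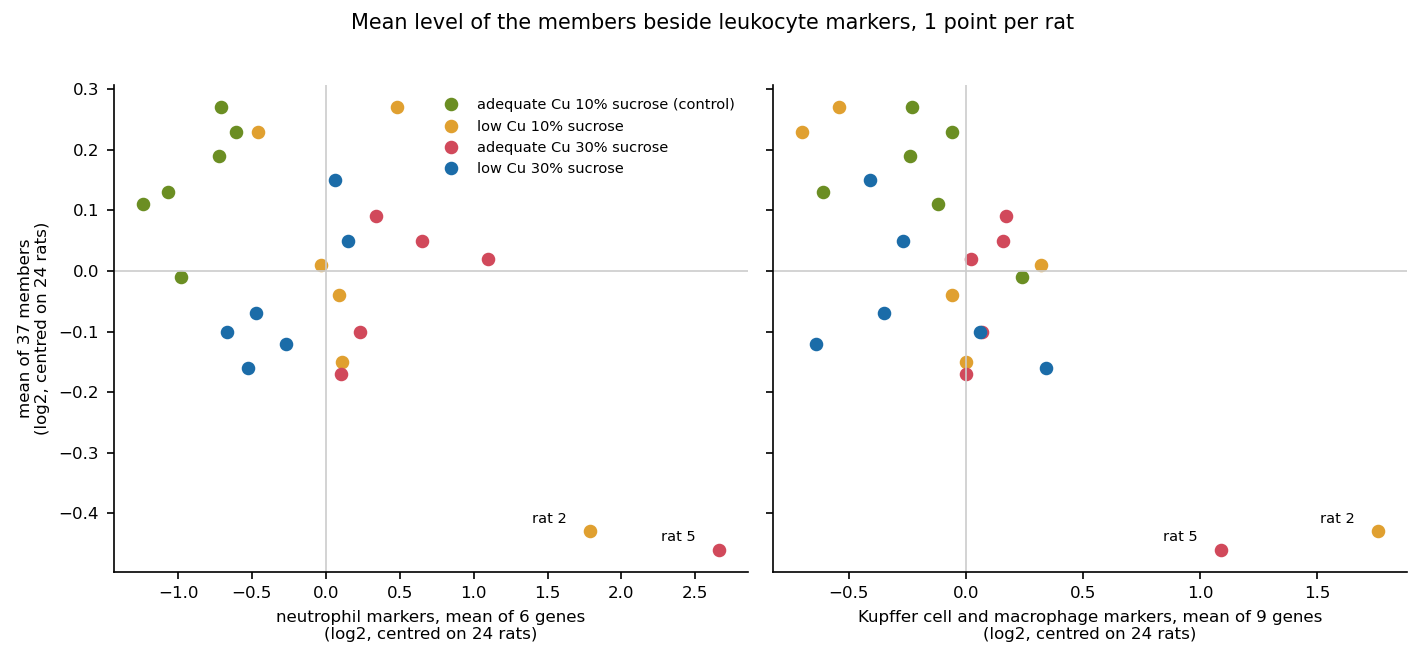
Mean of the 37 members (vertical axis) beside the mean of 6 neutrophil markers and of 9 Kupffer cell and macrophage markers (horizontal axes), all log2 and centred on 24 rats, 1 point per rat and colour by diet. Rat 5 on the sucrose diet and rat 2 on the low copper diet lie alone at the lower right, at -0.46 and -0.43.

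Around the members, 118 of 138 listed genes of the same pathways were kept. For sucrose at adequate copper 17 of them were lower and 4 higher past the test. In that comparison 2.48% of all genes passed as lower and 18.4% as higher. The lower share of all genes was larger with quantile normalization and with the authors' table, as given above. Counts of the 118 are not given for those settings. The median of the 118 was -0.19, and 92 of 118 lay below 0. The lower genes included 6 of 21 further genes of peroxisomal oxidation and import, 1 of 18 of mitochondrial oxidation, 7 of 33 other PPAR alpha targets and 1 of 23 receptors, partners and co-regulators. The higher genes were 1 ketone body enzyme and 3 of the receptors, partners and co-regulators. None of 4 omega oxidation genes and of 12 other carriers and synthetases passed.

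The largest falls among these were in Cyp8b1, the bile acid 12-alpha-hydroxylase, which stood at 2.31 ± 0.66 in the control rats and 0.96 ± 0.41 on the sucrose diet (difference -1.35, limma, SE 0.36, adjusted p = 0.0104), and in G0s2, an inhibitor of adipose triglyceride lipase (-0.93, SE 0.33, adjusted p = 0.0498). Hacl1 and Acox2, peroxisomal enzymes of branched-chain fatty acids and bile acid side chains, followed with -0.92 (adjusted p = 0.0454) and -0.86 (adjusted p = 0.0413), and Acot12, a cytosolic acetyl-CoA thioesterase, with -0.77 (SE 0.15, adjusted p = 0.00192).

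The genes that rose were Aacs, which activates acetoacetate for lipid synthesis (1.80, limma, SE 0.59, adjusted p = 0.0337, above background in 5 of 6 control rats), Ppard, the gene of PPAR delta (0.92, SE 0.32, adjusted p = 0.0430), and the co-regulators Nrip1 (0.73, SE 0.20, adjusted p = 0.0120) and Ncoa2 (0.65, SE 0.17, adjusted p = 0.00890). With the slide block none of the named ones passed, and the signs of Ppard (-0.54) and Ncoa2 (-0.09) turned, while Acot12 (-0.79), Hacl1 (-0.91), Acox2 (-0.87), Nrip1 (0.64) and Aacs (2.05) kept theirs. Cyp8b1 stood at -0.26 with the block.

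For copper at 10% sucrose 5 of the 118 were lower and 1 higher, where 0.595% of all genes passed as lower and 18% as higher. Ncoa2 was higher by 0.88 (limma, SE 0.17, adjusted p = 0.00151). The peroxisomal genes Phyh (-0.57, adjusted p = 0.0408), Pecr (-0.49, adjusted p = 0.0193) and Baat (-0.29, adjusted p = 0.0474), with Acot12 (-0.51, adjusted p = 0.0214) and Acad10 (-0.29, adjusted p = 0.0359), were lower. The probe of Acad10 could not be matched to a current symbol, so its name is that given on the array. Phyh starts the alpha oxidation of phytanic acid, Pecr reduces trans-2-enoyl-CoA, and Baat joins bile acids to glycine and taurine. With slide as a block 0 of all genes passed for copper at 10% sucrose (limma, 1252 at an unadjusted p under 0.05), and the differences were 0.37 for Ncoa2, -0.36 for Phyh, -0.31 for Pecr, -0.16 for Baat, -0.51 for Acot12 and -0.17 for Acad10. In the interaction 6 of the 118 passed above 0 and 2 below, against 1.94% and 18.9% of all genes. Those below 0 were Ncoa2 (-1.17, adjusted p = 0.00271) and Nrip1 (-1.02, adjusted p = 0.0134). Those above 0 were led by Mgll (0.96, adjusted p = 0.0244), Acot12 (0.81, adjusted p = 0.0112) and Pecr (0.78, adjusted p = 0.00994). Next above 0 came Sirt3, a mitochondrial deacetylase (0.70, adjusted p = 0.0355), and Ivd, the isovaleryl-CoA dehydrogenase (0.63, adjusted p = 0.0186). With the block 0 genes passed above 0 and 10 below in the interaction, and the 7 named here had adjusted p of 0.302 to 0.507.

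In the remaining comparisons limma called 0 of the 118 genes. The smallest p for sucrose at low copper belonged to Ncoa2 (-0.52, adjusted p = 0.453), Acot1 (-0.66, adjusted p = 0.476) and Pex13 (0.32, adjusted p = 0.493), and for copper at 30% sucrose to Nrip1 (-0.57, adjusted p = 0.463), Ivd (0.37, adjusted p = 0.463) and Acad9 (0.26, adjusted p = 0.473). For the diet with both changes against control they belonged to Acot12 (-0.47, adjusted p = 0.100), Slc25a42 (-0.68, adjusted p = 0.106) and Creb3l3 (-0.39, adjusted p = 0.135).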

How the data were processed

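Per the file headers, the scans were quantified in Feature Extraction 10.7.3.1 (protocol GE1_107_Sep09, 60-base probes placed on rn4), and the signal used is a deposited intensity from which background and spatial trend had been removed, without scaling of arrays to each other. The series table is a score deposited by the authors; how it was scaled is not given in the sources used here. It was multiplied by 662.2 and raised by 80.41 (interquartile range and median of the background-subtracted signal) with a floor of 5, an assumption, and 17.3% of its values lay at the floor. The deposited spot marks are of the unit other and served as marks only.

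Of 62976 spots, 4259 controls and outlier spots (0.652%) were left out. Log2 signals minus each array's 75th percentile were averaged per probe. Probes well above background on at least 6 arrays were kept (21179 of 30367), and the brightest stood for a gene (18641 genes). A mean per diet was fitted in R 4.3.3 by limma 3.58.1 with two-sided moderated tests, and the fit was tested on simulated data. Named genes were the members past the threshold, 10 fixed members, and of related lists the 5 largest rises and falls past it or else the 3 smallest p; Crat, Ech1 and other members named by single values were added after their values were seen. Some results of the related lists are not reported here. Members and lists were chosen with earlier results of these data known. Rats that carry the same number in different diets did not deviate together throughout (r of -0.29 to 0.36), so the numbers are names only. Probe names matched the same current symbol by accession for all 37 members, and no member was saturated. Promoters were from RefSeq, build GRCr8. Drawings used matplotlib 3.10.9.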

Additional observations from a re-analysis of the deposited data

Results flagged for a closer look

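In 10 of 148 sets of a member and a diet, a rat lay far from the other 5 by Dixon's test, where chance gives about 1 in 20, or 7.4. Rat 5 on the sucrose diet was highest in Cd36 at 2.42 (next rat -0.31), and lowest in Cpt2 at 2.31 (next 2.91), Acadm at 4.83 (next 5.38) and Acaa2 at 4.25 (next 4.91). Rat 2 on the low copper diet was highest in Cd36 at 2.46 (next -0.13) and lowest in Acadm at 4.52 (next 5.48), Acaa2 at 4.24 (next 5.06) and Acat1 at -0.36 (next 0.55). The other sets were Ppara in rat 1 on the combined diet, highest at -0.06 (next -0.48), and Crot in control rat 5, lowest at 0.46 (next 2.15). The copper difference of Bdh1 differed between 30% and 10% sucrose by 0.74 in the interaction test of limma.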

How the results depend on the processing

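Each result was computed under 12 other settings and with each of 24 rats left out. For sucrose at adequate copper 6 members passed, 2 with quantile normalization or the authors' table, 0 with the slide block, 8 with an intensity trend, 9 with array weights, and 2 to 9 with a rat left out, the 2 without rat 5 of the sucrose diet and the 9 without rat 2 of the low copper diet. With the replicate block 7 passed (6 lower, 1 higher), and it moved no other count of members. For copper at 10% sucrose 1 passed, 0 with quantile normalization, the authors' table, the slide block, only the groups compared or without the pair of rats, 2 with an intensity trend, 3 with array weights and 0 to 4 with a rat left out (4 without rat 6 and 3 without rat 3 of the low copper diet). For the combined diet 0 passed, 4 with array weights, 3 with only the groups compared and 1 without the pair. For the interaction 1 passed, 0 with quantile normalization, the authors' table, the slide block or without the pair, 3 with normexp, 2 with the mean of probes, an intensity trend or array weights, and 0 to 4 with a rat left out. The cause was not tested. The median difference of the members lay between -0.31 and -0.19 for sucrose at adequate copper over all settings, while it moved from 0.23 to 0.08 without the pair (0.15 without rat 2 of the low copper diet) for the interaction, from -0.20 to -0.06 with the slide block for the combined diet, from -0.13 to -0.06 without the pair for copper at 10% sucrose, from 0.10 to 0.02 without the pair for copper at 30% sucrose, and between -0.08 and 0.09 with a rat left out for sucrose at low copper. Over all genes, quantile normalization brought the share of higher calls for sucrose at adequate copper from 88.1 to 60.4% and the authors' table to 62.7%, with 1036 and 918 lower calls against 462. For copper at 10% sucrose those shares were 96.8, 74.0 and 79.1%, and for the interaction 9.29, 38.4 and 32.5%. Without the filter the median of all genes for sucrose at adequate copper moved from 0.07 to 0.18. Among single genes 53 values lost and 37 gained a call and 0 called values turned their sign, while 40 of 96 differences of named members, none of them called, turned it in some setting, 26 with the slide block.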
